A study of Mus musculus with 9 samples.

Results

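The RNAs described here are 4 long noncoding RNAs that act in the nucleus, Malat1, Neat1, Meg3 and Kcnq1ot1, and Rn45s, the row of the 45S precursor of ribosomal RNA. They were taken by gene symbol and make up 5 of the 13192 genes in the count table. They were chosen by their percent of each library's counts, with these libraries in view, so those shares are given as a description with no test. The libraries were made from the apex of the heart of male wild-type C57BL/6J mice. All mice were injected at 10 weeks of age with 1e+11 viral particles of adeno-associated virus (AAV) in the right gastrocnemius, a leg muscle, and hearts were taken after 12 weeks. The AAV-Osm vector delivers the oncostatin M gene, which encodes a cytokine of the interleukin-6 family, and AAV-Null is the control vector, so control hearts also come from virus-injected animals. The promoter of the vector is not given in the sources used here, and Osm was not analysed here, so the labels could not be checked against the delivered transcript. There were 4 AAV-Null and 5 AAV-Osm libraries, numbered within each group as names only. The design text has 5 samples of each group submitted and 9 used in all, so the control group is 1 short of the number submitted. The labels do not say that each library came from its own mouse, so the p-values here measure only the spread from sample to sample, which may be technical.

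Malat1 collects in nuclear speckles, bodies rich in splicing factors, and is among the most abundant long noncoding RNAs of mammalian cells. Neat1 is the RNA scaffold of paraspeckles, bodies that form next to speckles and hold back certain RNAs and proteins. It is made as a short form with a poly(A) tail and a long form, and only the long form builds the bodies. Meg3 is transcribed from the maternal chromosome in the imprinted Dlk1-Dio3 domain. Kcnq1ot1 is transcribed from the paternal chromosome, antisense to Kcnq1, and silences neighbours such as the cell cycle inhibitor gene Cdkn1c in cis. Rn45s is the transcript of RNA polymerase I, which is cut in the nucleolus into the 18S, 5.8S and 28S ribosomal RNAs and carries no ordinary poly(A) tail.

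The 3′ ends of Malat1 and of long Neat1 are unusual, and they are shown because the libraries were enriched for mRNA, per the labels' protocols. Both precursors are cut by RNase P, the enzyme that trims tRNA precursors, and the new ends are protected by a triple helix of an A-rich tract with U-rich motifs in place of a poly(A) tail. The sequences below are from GENCODE release M21 on GRCm38, minus strand, 5′ to 3′, with the shared A-rich tract AAAAAGCAAAA, the longest stretch at the end of Neat1-201 that Malat1-201 also holds, in capitals. The Malat1 stretch (chr19:5795922-5796082) covers bases 6591 to 6751 of transcript Malat1-201 and runs on into the tRNA-like part downstream of the tract. The Neat1 stretch (chr19:5824708-5824808) covers bases 20671 to 20771 of Neat1-201 and ends with the tract.
Malat1: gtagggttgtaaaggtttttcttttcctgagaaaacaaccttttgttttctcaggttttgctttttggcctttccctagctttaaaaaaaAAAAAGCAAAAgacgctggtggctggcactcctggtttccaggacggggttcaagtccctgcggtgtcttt
Neat1: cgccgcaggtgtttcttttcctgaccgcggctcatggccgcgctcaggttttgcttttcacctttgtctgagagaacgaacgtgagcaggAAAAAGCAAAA
The tract starts at base 6681 of Malat1-201 and base 20761 of Neat1-201. It occurs in 618 of 141767 GENCODE transcripts, or 0.436%.

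Kcnq1ot1 holds a long internal run of A, shown in capitals below with its flanks (GRCm38, chr7:143226915-143227015, minus strand, bases 69535 to 69635 of Kcnq1ot1-201).
Kcnq1ot1: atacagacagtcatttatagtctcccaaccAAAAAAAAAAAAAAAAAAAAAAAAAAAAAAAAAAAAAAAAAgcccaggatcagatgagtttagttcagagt
This run is 41 bases long. The longest run of A is 12 bases in Malat1-201, 16 in Meg3-209, 7 in Neat1-201 and 5 in the short form Neat1-202. Runs of 12 or more A occur in 5768 of the GENCODE transcripts, or 4.07%.

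On mm10, the build of the count table, the Malat1 row lay at chr19:5795690-5802671 on the minus strand and the Neat1 row at chr19:5824710-5845480 on the same strand, with 22038 bases between them. The Neat1 row spans both isoforms, whose reads cannot be told apart here. Meg3 lay at chr12:109540996-109571729 on the plus strand with 12956 exonic bases. Kcnq1ot1, unspliced and 83437 bases long, lay at chr7:143213111-143296547 on the minus strand, inside Kcnq1 on the plus strand. The strand setting of the counting is not given in the sources used here, so reads of Kcnq1 precursor RNA and of Kcnq1ot1 cannot be told apart. Rn45s lay at chr17:39842997-39848829 on the plus strand over 5833 bases. In GENCODE M21 that interval overlaps the lincRNA gene Gm26917 by 3329 bases and the rRNA gene CT010467.1, on the opposite strand, by 2475 bases, so reads of mature ribosomal RNA may be counted in this row and cannot be told apart from precursor.

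Total counts ran from 11841106 to 30625134 per library, and the 5 rows together took 8.56% (AAV-Osm 5) to 15.99% (AAV-Osm 1) of them. The cardiomyocyte markers were all in the table, 13 of 13, at 11.0 to 12.0% of the counts outside the 5 rows in AAV-Null and 11.3 to 13.3% in AAV-Osm. All 11 liver-type markers were listed at 0.000725 to 0.0193% and 0.000722 to 0.00681%, and 4 of 6 lymphocyte markers at 0.000593 to 0.000883% and 0.000744 to 0.00121%. Of 6 adipocyte markers 0 were in the table. Per the labels' protocols RNA had to reach an integrity number of 5, and the number of each library is not given in the sources used here.

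Per length, the order of the levels was the same in all libraries. In RPKM, the count scaled by exon length and by the library total, the mean over the 9 libraries was 19525 ± 4164 (SD, n = 9) for Rn45s, 770.4 ± 366.5 for Malat1, 30.3 ± 10.1 for Neat1, 1.62 ± 0.626 for Meg3 and 0.407 ± 0.165 for Kcnq1ot1. No neighbours in this order overlapped: the closest were Meg3, whose lowest library was at 0.742, and Kcnq1ot1, whose highest was at 0.681.

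**Figure D1:**
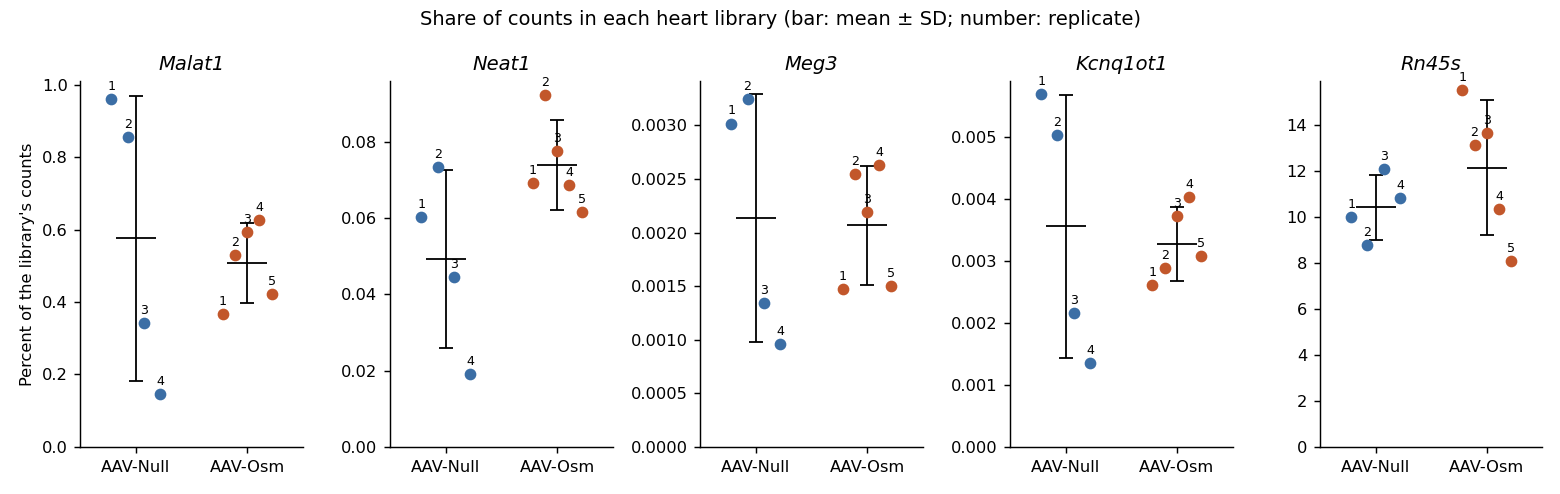
Percent of the library's counts (vertical axis) taken by each of the 5 RNAs in the 4 AAV-Null (blue) and 5 AAV-Osm (orange) libraries, with the replicate number at each point and mean ± SD as bars. Malat1, Meg3 and Kcnq1ot1 were high in AAV-Null 1 and 2 and low in AAV-Null 3 and 4, with the AAV-Osm libraries between 0.367 and 0.626% for Malat1, while Rn45s ran from 8.07 to 15.6%.

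Malat1 took 0.959, 0.856, 0.341 and 0.147% of the counts across AAV-Null 1 to 4, against 0.367, 0.531, 0.593, 0.626 and 0.422% across AAV-Osm 1 to 5. The control group held both ends of the range, and every AAV-Osm library lay between AAV-Null 2 and AAV-Null 3. AAV-Null 1 and 2, the controls at the high end, were also the most alike pair of libraries over all genes, with a chi-square per degree of freedom of 6.52. AAV-Osm 2 and 3 followed at 9.68, and every other pair was at 17.3 to 131.7. This chi-square took in the 5 rows and grows with depth, so it is not independent of the Malat1 share. Malat1 was the 8th most counted gene in AAV-Null 1 and the 75th in AAV-Null 4, a 6.53-fold range in share. The group means were 0.576% ± 0.394 (SD, n = 4) and 0.508% ± 0.111 (SD, n = 5).

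Neat1 took 0.0602, 0.0734, 0.0446 and 0.0190% across AAV-Null 1 to 4, against 0.0691, 0.0922, 0.0776, 0.0687 and 0.0615% across AAV-Osm 1 to 5. The AAV-Osm libraries were the higher ones except that AAV-Null 2 stood above 3 of them, so the groups overlapped. The means were 0.0493% ± 0.0234 (SD, n = 4) and 0.0738% ± 0.0118 (SD, n = 5), and AAV-Null 4 was the lowest library, as it was for Malat1, Meg3 and Kcnq1ot1.

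Both imprinted RNAs were rare. Meg3 took 0.00302, 0.00324, 0.00134 and 0.000962% across AAV-Null 1 to 4, against 0.00147, 0.00255, 0.00219, 0.00263 and 0.00150% across AAV-Osm 1 to 5, from raw counts of 213 to 736. Kcnq1ot1 took 0.00568, 0.00503, 0.00215 and 0.00135% across AAV-Null 1 to 4, against 0.00261, 0.00288, 0.00373, 0.00404 and 0.00308% across AAV-Osm 1 to 5, from raw counts of 299 to 1143. AAV-Null 1 and 2 were the highest and AAV-Null 3 and 4 the lowest libraries for both RNAs. The widest 95% Wilson interval of any of the 5 shares reached 13.5% of its value to a side, which covers counting error only, so the several-fold ranges lie beyond counting error.

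Rn45s was the most counted gene in all 9 libraries, with 9.99, 8.79, 12.1 and 10.8% of the counts across AAV-Null 1 to 4, against 15.6, 13.2, 13.7, 10.4 and 8.07% across AAV-Osm 1 to 5. The next gene by mean share was Mb, the gene of myoglobin, at 2.33%. Of the AAV-Osm libraries, 3 lay above every control and AAV-Osm 5 below every control. The means were 10.4% ± 1.40 (SD, n = 4) and 12.2% ± 2.94 (SD, n = 5), and the range over all libraries was 1.93-fold, the smallest among the 5 RNAs.

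None of the 5 RNAs passed the test between the groups. In edgeR's quasi-likelihood test with Benjamini-Hochberg adjustment, 0 of 5 had an adjusted p under 0.05, where 0.121% of all genes did (16 of 13192; 0.0834% higher and 0.0379% lower). At an unadjusted p under 0.05 there was 1 of 5, Neat1, where 5.97% of all genes were. DESeq2 and limma-voom also called 0 of 5, where they called 51 and 170 of the 13192 genes. Of the 5, 0 had groups that did not overlap, where 2.28% of all genes did. Fold changes are log2 of AAV-Osm over AAV-Null, on CPM, the count as a rate of the library's total, after TMM scaling, a factor per library set so that most genes are equal on average. In these bulk samples, fewer cells of a type and less RNA per cell cannot be told apart.

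Neat1 had the largest difference. Its scaled levels were 561.2, 686.3, 449.5 and 206.0 CPM across AAV-Null 1 to 4, against 676.6, 993.6, 827.8, 708.3 and 557.9 CPM across AAV-Osm 1 to 5. AAV-Osm 2, 3 and 4 lay above every control, and AAV-Osm 5 lay just under AAV-Null 1. The log2 fold change was 0.66 with a standard error (SE) of 0.28 and a 95% interval of 0.05 to 1.27. Its unadjusted p in edgeR was 0.0354 and the adjusted p 0.796. The fold change was 0.41 without AAV-Null 4 and 0.27 without AAV-Null 3 and 4.

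For the other RNAs the interval spanned 0 widely. The log2 fold change of Malat1 was -0.08 (SE 0.40, 95% interval -0.94 to 0.77, edgeR adjusted p = 0.992), and that of Kcnq1ot1 was -0.04 (SE 0.32, -0.73 to 0.64, adjusted p = 0.998). Meg3 was at 0.04 (SE 0.32, -0.65 to 0.73, adjusted p = 0.999) and Rn45s at 0.26 (SE 0.22, -0.22 to 0.74, adjusted p = 0.947). These intervals include changes of over 1.5-fold in either direction for Malat1, Meg3 and Kcnq1ot1, so a difference of that size lies within the error. The sign for Malat1 and Kcnq1ot1 turned when AAV-Null 1, AAV-Null 2, AAV-Osm 1 or AAV-Osm 5 was left out, reaching 0.26 and 0.25 without AAV-Null 1. Without both AAV-Null 3 and 4, Malat1 was at -0.71 (SE 0.24) and Kcnq1ot1 at -0.60 (SE 0.20). The sign for Meg3 turned under total-count scaling, to -0.051, and on leaving out AAV-Null 3 or 4 or any of AAV-Osm 2, 3 and 4, reaching -0.18 without AAV-Null 4. Rn45s stayed positive in all 20 alternatives, at 0.16 to 0.52.

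**Figure D2:**
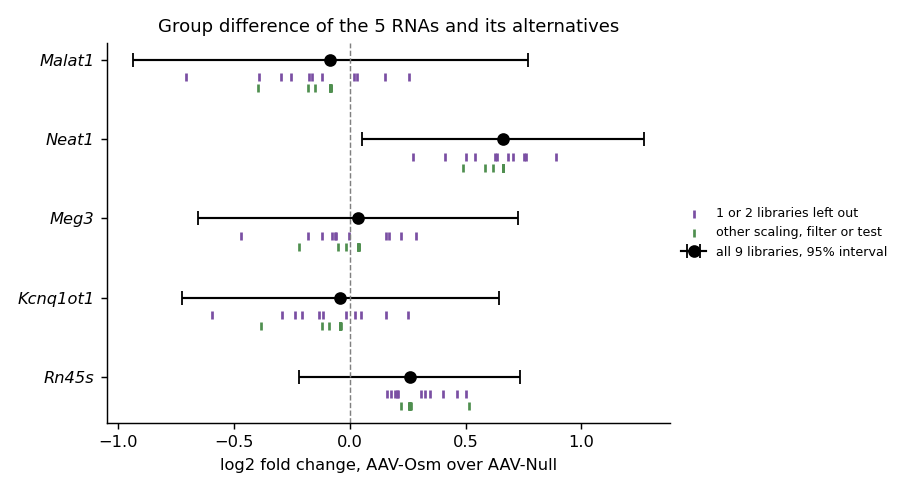
Log2 fold change of AAV-Osm over AAV-Null (horizontal axis) for each of the 5 RNAs, with the edgeR estimate from all 9 libraries and its 95% interval in black, the fits with 1 or 2 libraries left out as purple ticks and those with another scaling, filter or test as green ticks. The ticks of Neat1 (0.27 to 0.89) and Rn45s (0.16 to 0.52) are all to the right of 0, and those of Malat1, Meg3 and Kcnq1ot1 lie on both sides.

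The spread within groups was the larger feature of the nuclear RNAs. Over the 9 libraries the SD of log2 CPM was 0.77 for Malat1, 0.65 for Neat1, and 0.59 for both Meg3 and Kcnq1ot1, against a median of 0.29 over all genes. That of Malat1 was above 97.8% of all genes and that of Meg3, the lowest of the 4 in rank, above 92.9%. Rn45s had an SD of 0.37, above 69.7% of genes. The 4 nuclear RNAs varied more among the controls than in AAV-Osm hearts, with an SD of log2 CPM of 1.16 against 0.41 for Malat1, 0.76 against 0.31 for Neat1, 0.76 against 0.49 for Meg3 and 0.89 against 0.31 for Kcnq1ot1, whereas Rn45s had 0.27 against 0.44. The difference in spread was not tested.

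Malat1, Kcnq1ot1 and Meg3, which lie on different chromosomes, varied together from library to library. On scaled log2 CPM over the 9 libraries, Malat1 and Kcnq1ot1 had a Pearson r of 0.98 and the same rank order in every library (Spearman rho 1.0). Malat1 and Meg3 had an r of 0.94 and a rho of 0.92, and Meg3 and Kcnq1ot1 an r of 0.91 and a rho of 0.92. Without the 2 libraries farthest from the median on the first RNA, AAV-Null 3 and 4, r was 0.97, 0.92 and 0.81 in that order. These values are a description, as the levels chose the RNAs, and the points share libraries whose depth and composition differ.

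Neat1 followed them less closely. Its r was 0.77 with Malat1, 0.73 with Meg3 and 0.70 with Kcnq1ot1, with a rho of 0.55, 0.67 and 0.55. Without AAV-Null 3 and 4 those r were 0.045, 0.37 and -0.17, so the relation rests on those 2 libraries. Rn45s had an r of -0.22 with Malat1, -0.11 with Meg3, -0.30 with Kcnq1ot1 and 0.17 with Neat1, and the last was 0.71 without AAV-Null 3 and 4.

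**Figure D3:**
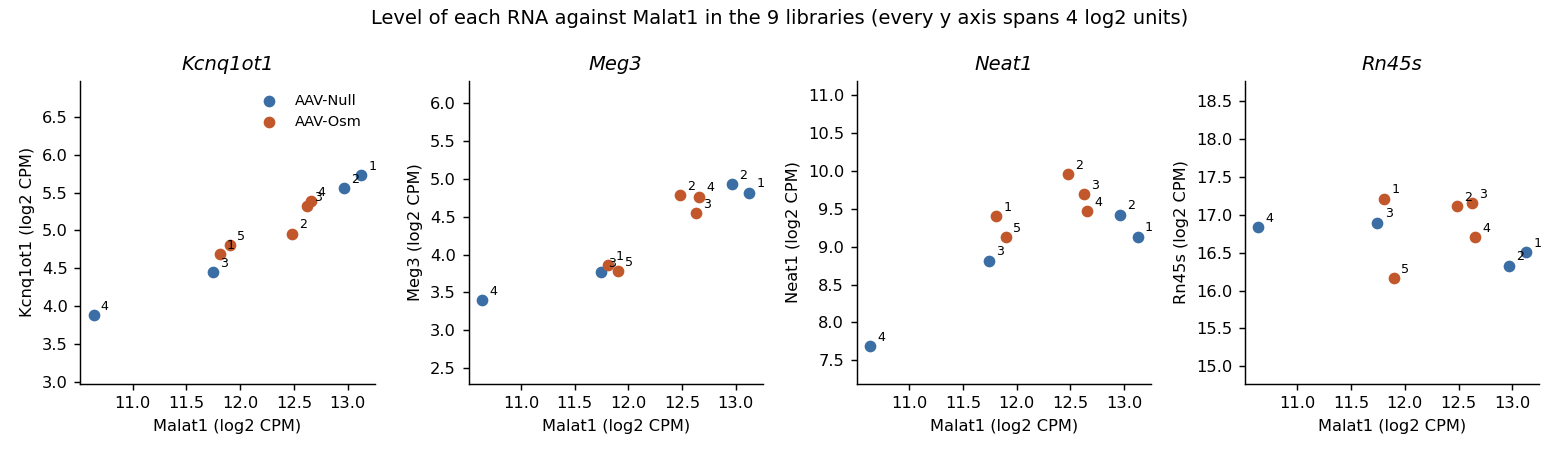
Scaled level (log2 CPM) of Kcnq1ot1, Meg3, Neat1 and Rn45s (vertical axes, each spanning 4 log2 units) against Malat1 (horizontal axis) in the 9 libraries, with the replicate number at each point. Kcnq1ot1 and Meg3 rise with Malat1 in both groups (r = 0.98 and 0.94), Neat1 is set apart mainly by AAV-Null 4, and Rn45s shows no line with Malat1 (r = -0.22).

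The ratio of 2 RNAs within a library does not depend on scaling. Per 100 Malat1 reads there were 0.592, 0.588, 0.631 and 0.919 Kcnq1ot1 reads across AAV-Null 1 to 4, against 0.713, 0.542, 0.629, 0.645 and 0.730 across AAV-Osm 1 to 5. The whole range was 1.70-fold, while the share of Malat1 itself ranged 6.53-fold, and AAV-Null 4, where Malat1 was lowest, stood above the rest. The group means were 0.683 ± 0.159 (SD, n = 4) and 0.652 ± 0.0748 (SD, n = 5).

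Meg3 had 0.314, 0.379, 0.393 and 0.655 reads per 100 Malat1 reads across AAV-Null 1 to 4, against 0.401, 0.480, 0.369, 0.420 and 0.356 across AAV-Osm 1 to 5. Again AAV-Null 4 was highest. Without it the groups overlapped in part, with AAV-Osm 1, 2 and 4 above AAV-Null 1, 2 and 3. Neat1 had 6.27, 8.58, 13.1 and 12.9 reads per 100 Malat1 reads across AAV-Null 1 to 4, against 18.8, 17.4, 13.1, 11.0 and 14.6 across AAV-Osm 1 to 5. The means were 10.2 ± 3.36 (SD, n = 4) and 15.0 ± 3.17 (SD, n = 5), and AAV-Osm 4 lay below AAV-Null 3 and 4, so the groups overlapped. Rn45s ranged from 1027 reads per 100 Malat1 reads in AAV-Null 2 to 7369 in AAV-Null 4.

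**Figure D4:**
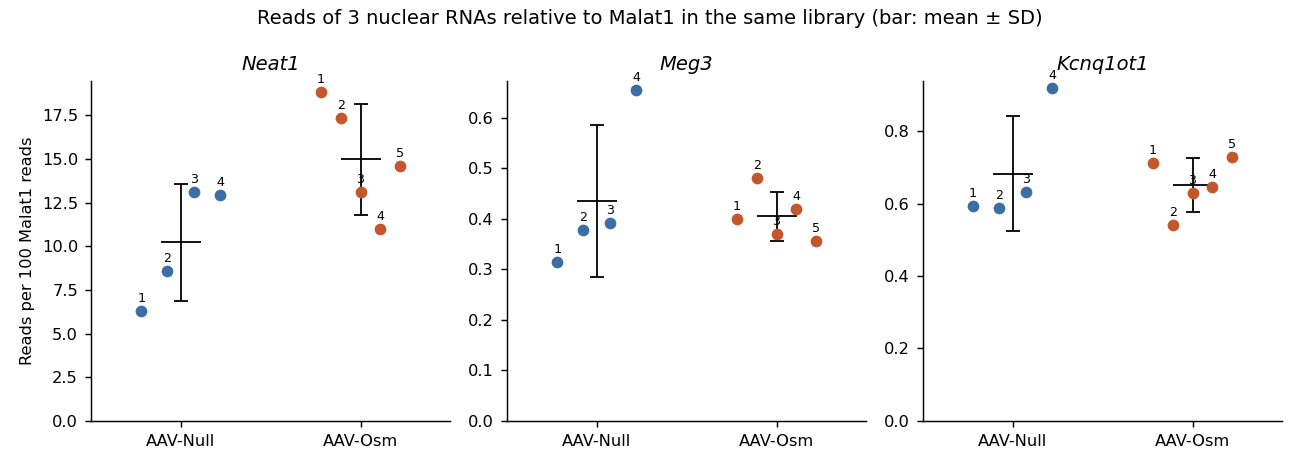
Reads of Neat1, Meg3 and Kcnq1ot1 per 100 Malat1 reads of the same library (vertical axes, from 0) by group, with replicate numbers at the points and mean ± SD as bars. Kcnq1ot1 and Meg3 are highest in AAV-Null 4 (0.919 and 0.655), and Neat1 reaches 18.8 in AAV-Osm 1.

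By the fixed rule, the 5 genes whose scaled level had the highest r with each RNA over the 9 libraries were taken among 9475 genes with a mean of at least 5 CPM, as a description. For Malat1 they were Pnisr (0.98), Kcnq1ot1 (0.98), Macf1 (0.97), Ttc14 (0.97) and 5031426D15Rik (0.96). Kcnq1ot1 had Macf1 (0.99), Malat1 (0.98), Pnisr (0.97), Mast4 (0.96) and Dtx3 (0.96), and Meg3 had Ttc14 (0.99), Ubn2 (0.96), Arhgef1 (0.95), Speg (0.95) and Pnisr (0.95). Pnisr encodes a serine- and arginine-rich protein of nuclear speckles, and Macf1 a very large linker of actin and microtubules. Pnisr was at 113.7, 103.9, 62.1 and 40.3 CPM across AAV-Null 1 to 4, against 61.1, 82.0, 79.8, 97.1 and 59.5 CPM across AAV-Osm 1 to 5. Its order over the libraries was close to that of Malat1, and AAV-Null 4 was again the lowest.

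Neat1 was most like Efr3b (0.94), Rasa2 (0.93), Rnf207 (0.93), Huwe1 (0.90) and Npr2 (0.90), and Rn45s like Acaca (0.96), Zfyve27 (0.95), Cd2bp2 (0.95), Ap5z1 (0.94) and Trak2 (0.94). None of these was among the 5 of another RNA. With total-count scaling, 3 of the 5 genes were the same for Malat1, Neat1 and Kcnq1ot1 and 2 of 5 for Meg3 and Rn45s. At an r of 0.9 or more, among 9470 genes outside the 5 rows, Malat1 had 42 genes, Kcnq1ot1 44, Meg3 35, Rn45s 28 and Neat1 3. Malat1 and Kcnq1ot1 shared 32 of their 42 and 44, Malat1 and Meg3 17 of 42 and 35, and Meg3 and Kcnq1ot1 15 of 35 and 44, while Neat1 and Rn45s shared 0 with any other. The median summed exon length of these genes was 7390 bases for Malat1, 7182 for Kcnq1ot1, 8223 for Meg3, 5699 for Neat1 and 4217 for Rn45s, against 2986 for all. With a negative r of 0.9 or more in size, Malat1 had 16 genes, Kcnq1ot1 26, Meg3 9, Rn45s 81 and Neat1 10.

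Genes with long transcripts moved with Malat1 as a class. The 1615 genes with 6000 or more exonic bases took 12.1, 11.2, 9.13 and 9.06% of the counts outside the 5 rows across AAV-Null 1 to 4, against 10.3, 10.9, 11.3, 11.6 and 10.6% across AAV-Osm 1 to 5. AAV-Null 3 and 4, the controls low in Malat1, were the lowest, and the r with scaled Malat1 was 0.91 (rho 0.95), or 0.90 without those 2. The class was defined after the levels of the 5 RNAs had been seen, so it is given with no test. What RNA integrity or transcript length contributes to the levels of the nuclear RNAs was not tested.

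The 45 tested genes of nuclear speckles and splicing, the bodies and the machinery that Malat1 sits with, together took 0.473, 0.441, 0.338 and 0.313% of the counts outside the 5 rows across AAV-Null 1 to 4, against 0.354, 0.361, 0.379, 0.414 and 0.394% across AAV-Osm 1 to 5. Pnisr is one of them. The controls again held both ends. The r with Malat1 was 0.88 and the rho 0.95, and without AAV-Null 3 and 4 the r was 0.77. The 8 macrophage markers went the other way, with an r of -0.89 and a rho of -0.68, and an r of -0.66 without the 2 libraries. These r were among the largest in size of 48 relations computed between such measures and Malat1 or Rn45s, and they are a description with no test, since the levels of both RNAs were used in choosing them. These markers took 0.0488, 0.0462, 0.0654 and 0.0901% across AAV-Null 1 to 4, against 0.0713, 0.0455, 0.0469, 0.0527 and 0.0507% across AAV-Osm 1 to 5, so AAV-Null 4 was highest where Malat1 was lowest. Their part in the levels of Malat1 was not tested.

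Of the measures taken, nearly all of them sums over sets of genes, the closest to Rn45s was the Lars2 row. Lars2 is the gene of a mitochondrial leucyl-tRNA synthetase, listed because reads of ribosomal RNA are known to map to it. Other rows were closer to Rn45s on scaled levels, with Acaca at an r of 0.96 and 28 genes in all at 0.9 or more. Lars2 (chr9:123366940-123462664 on mm10) was at 2792, 2910, 3492 and 3757 CPM across AAV-Null 1 to 4, against 4212, 5107, 5017, 4157 and 1950 CPM across AAV-Osm 1 to 5. AAV-Osm 1 to 4 lay above every control and AAV-Osm 5, as for Rn45s, below every control. The r with Rn45s, again a description, was 0.92, or 0.86 without AAV-Null 2 and AAV-Osm 5, and the rho was 0.87. The log2 fold change of Lars2 was 0.34 (SE 0.24, edgeR adjusted p = 0.934). The list of structured RNAs without a poly(A) tail has 10 rows, and the coding gene Lars2 is 1 of them and makes up most of its counts. Besides Lars2 and that list, the measure with the largest r in size was the summed share of the paraspeckle genes, at -0.71.

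**Figure D5:**
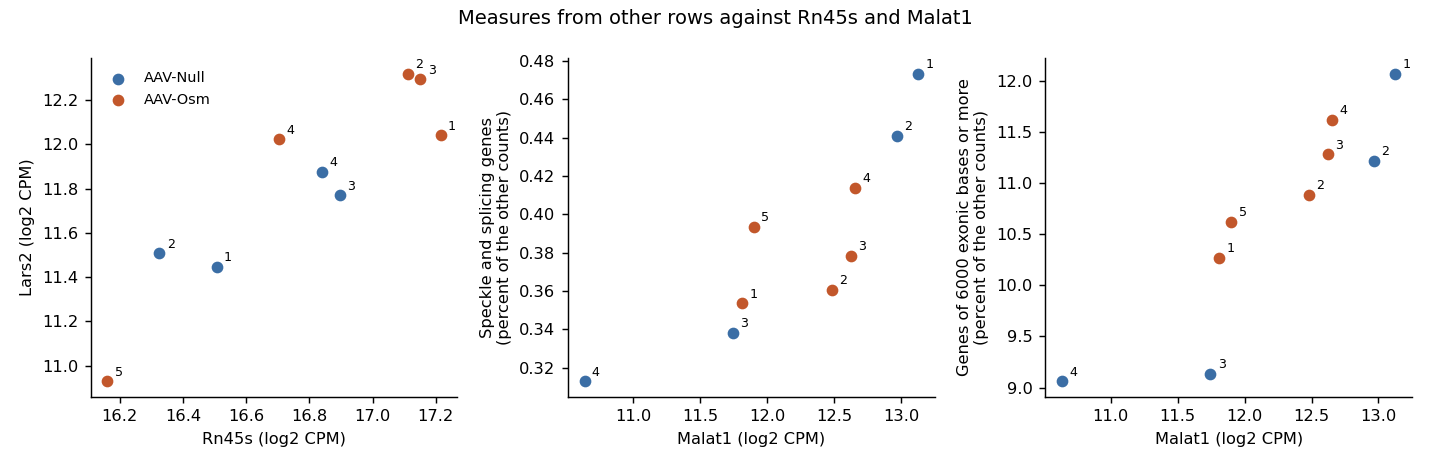
Left, Lars2 against Rn45s (both log2 CPM). Middle and right, the percent of the counts outside the 5 rows taken by speckle and splicing genes and by genes with 6000 or more exonic bases, against Malat1 (log2 CPM). Points are the 9 libraries with their replicate numbers, and AAV-Null 3 and 4 are at the lower left of the middle and right plots (r = 0.88 and 0.91), AAV-Osm 5 at the lower left of the left plot (r = 0.92). Each r was computed with the log2 of the percent of the counts outside the 5 rows, for Lars2 too, not with the plotted values.

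The genes named here around these RNAs did not pass the test. On chromosome 19, Frmd8, 5493 bases beyond Neat1, was at 8.76 ± 1.78 CPM (SD, n = 4) and 8.80 ± 1.24 CPM (SD, n = 5), with an r of -0.32 with Neat1 and -0.56 with Malat1. Ltbp3, 37157 bases from Malat1 on its other side, also had an r of -0.56 with Malat1, and Slc25a45, beyond Frmd8, had -0.096 with Neat1. These r were negative, while that between Malat1 and Neat1 was 0.77. Rian, the maternally expressed noncoding RNA 32215 bases downstream of Meg3, had an r of -0.31 with Meg3 and a difference between groups of 0.14 on the log2 scale (SE 0.31, adjusted p = 0.983). Its level was 2.09 ± 0.498 CPM (SD, n = 4) in AAV-Null and 2.27 ± 1.05 CPM (SD, n = 5) in AAV-Osm. The other rows around Meg3 lay 512543 bases away or more, and their r with Meg3 was -0.62 for Wdr25, 0.11 for Wars and 0.22 for Ppp2r5c. The nearest rows on either side of Rn45s lay 1026652 and 2568511 bases away. There the r with Rn45s was -0.83 for Cenpq, -0.71 for H2-M3, 0.46 for Gabbr1 and -0.18 for 9130008F23Rik. Cenpq and H2-M3, far from Rn45s, thus had a larger r in size than Frmd8 and Slc25a45 had with Neat1.

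In the Kcnq1ot1 domain, Kcnq1, which encodes a cardiac potassium channel and whose interval contains Kcnq1ot1, was at 24.3, 29.8, 30.3 and 19.95 CPM across AAV-Null 1 to 4, against 32.1, 30.4, 26.1, 25.7 and 32.9 CPM across AAV-Osm 1 to 5. It did not follow Kcnq1ot1 (r = 0.17), and its log2 fold change was 0.18 (SE 0.15, edgeR adjusted p = 0.947). Cdkn1c was at 31.8, 29.6, 25.7 and 49.1 CPM across AAV-Null 1 to 4, against 20.3, 24.6, 22.3, 25.9 and 15.1 CPM across AAV-Osm 1 to 5. Among AAV-Osm libraries only AAV-Osm 4 reached the lowest control, AAV-Null 3, so the groups overlapped. The log2 fold change of Cdkn1c was -0.66 (SE 0.20, unadjusted p = 0.00659, edgeR adjusted p = 0.559), or -0.43 without AAV-Null 4, and its r with Kcnq1ot1 was -0.23. Tssc4 was at -0.15 (SE 0.18, adjusted p = 0.964) and Slc22a18, at under 1 CPM on average, at -0.56 (SE 0.41, adjusted p = 0.934).

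No list of genes tied to these RNAs had a member past the threshold in edgeR, which 0.121% of all genes passed. At that share, lists of this size would be expected to hold few calls or none. At an unadjusted p under 0.05 there were 5.97% of all genes. At that level there was 1 of the 35 paraspeckle genes, 2 of 45 speckle and splicing genes and 2 of 32 imprinted genes. There was also 1 of 18 other long noncoding RNAs and 1 of 10 rows in the list of structured RNAs, which holds Lars2. The other 5 lists had 0. DESeq2 called 0 in every list and limma-voom 1, in the paraspeckle list, where they called 51 and 170 of all 13192 genes. The proteins of paraspeckles had 0 of 35 tested genes called, with a median log2 fold change of 0.00 beside 0.01 over all genes. Hnrnpa2b1, an abundant RNA-binding protein gene, was at -0.10 (SE 0.12, adjusted p = 0.967). The gene with the smallest p there, Zc3h6, was named after its values were seen and was at 7.67 ± 1.44 CPM (SD, n = 4) against 13.5 ± 4.05 CPM (SD, n = 5), with an edgeR adjusted p of 0.468. The speckle and splicing list had 0 of 45 called with a median of 0.00, and its most abundant gene Rbm25, a splicing regulator, was at 0.04 (SE 0.18, adjusted p = 0.992). Among the genes of RNA 3′ end processing and RNase P, which cut the ends shown above, 0 of 16 were called with a median of -0.01, and the nuclear exosome nuclease gene Exosc10 was at 48.2 ± 2.84 CPM (SD, n = 4) and 49.2 ± 3.96 CPM (SD, n = 5).

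Among imprinted genes 0 of 32 were called, with a median of -0.03. The most abundant was Dcn, the gene of the matrix proteoglycan decorin, at -0.27 (SE 0.22, adjusted p = 0.941). Other long noncoding RNAs had 0 of 18 called and a median of 0.17, with 13 of 18 positive and 5 negative, where 48.1% of all genes were negative. Mhrt, an RNA antisense to a cardiac myosin gene, was at 139.3 ± 49.1 CPM (SD, n = 4) and 133.2 ± 44.8 CPM (SD, n = 5), with a difference of -0.06 on the log2 scale (SE 0.28, adjusted p = 0.990).

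On the side of ribosomal RNA, the genes of RNA polymerase I and its factors had 0 of 26 called with a median of -0.03, and those of pre-rRNA processing 0 of 62 with a median of -0.02. Polr2e, a subunit shared by the nuclear RNA polymerases, was at 99.2 ± 3.65 CPM (SD, n = 4) and 99.8 ± 13.6 CPM (SD, n = 5), and Ncl, the gene of nucleolin, at 0.12 (SE 0.14, adjusted p = 0.966). The hosts of small nucleolar RNAs, which guide changes to ribosomal RNA, had 0 of 14 called with a median of -0.03, with Gas5 at -0.09 (SE 0.16, adjusted p = 0.978). Their summed share was 0.0133% ± 0.000519 (SD, n = 4) in AAV-Null and 0.0121% ± 0.000665 (SD, n = 5) in AAV-Osm, where the lowest control (0.01286%) was just above the highest AAV-Osm library (0.01284%). The exact two-sided permutation p was 0.0159, the smallest that regrouping 4 and 5 libraries allows, and 0.365 after adjustment over 23 measures of composition. The list of structured RNAs without a poly(A) tail, which also holds the coding gene Lars2, had 0 of 10 called with a median of -0.02. Replication-dependent and linker histone genes, whose core members end in a stem-loop rather than a poly(A) tail, had 0 of 10 called with a median of -0.21. H1f0, a linker histone gene, was at 0.10 (SE 0.18, adjusted p = 0.978).

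Since Malat1, Meg3 and Kcnq1ot1 varied together, the RefSeq windows of 300 bases around their annotated starts (GRCm38.p6) are shown, with matches to TGACGT, the core of the cAMP response element, and TATAAA, the TATA box, on either strand in capitals. The windows are chr19:5802623-5802922 on the minus strand for Malat1, chr12:109540746-109541045 on the plus strand for the upstream start of Meg3 and chr7:143296498-143296797 on the minus strand for Kcnq1ot1. Of the 5 RNAs, 3 matched the table.
Malat1 promoter: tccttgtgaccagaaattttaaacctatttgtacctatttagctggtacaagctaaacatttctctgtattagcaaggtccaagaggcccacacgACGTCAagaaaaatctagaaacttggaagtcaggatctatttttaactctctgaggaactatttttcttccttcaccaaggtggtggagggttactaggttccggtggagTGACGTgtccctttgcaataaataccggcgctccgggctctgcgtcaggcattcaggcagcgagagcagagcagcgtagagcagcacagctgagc
Meg3 promoter: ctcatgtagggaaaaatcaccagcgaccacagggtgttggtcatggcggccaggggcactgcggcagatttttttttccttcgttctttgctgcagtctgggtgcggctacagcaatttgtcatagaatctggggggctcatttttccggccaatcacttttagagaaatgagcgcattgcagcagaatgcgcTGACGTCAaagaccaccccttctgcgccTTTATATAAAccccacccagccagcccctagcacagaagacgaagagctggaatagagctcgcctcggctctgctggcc
Kcnq1ot1 promoter: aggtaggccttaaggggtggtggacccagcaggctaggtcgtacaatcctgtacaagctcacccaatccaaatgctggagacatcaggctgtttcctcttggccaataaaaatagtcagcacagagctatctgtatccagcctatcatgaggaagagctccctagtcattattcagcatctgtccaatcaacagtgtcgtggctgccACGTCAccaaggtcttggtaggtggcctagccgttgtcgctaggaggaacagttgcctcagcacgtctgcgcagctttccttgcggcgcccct
Each window shown held TGACGT, as did 2468 of 32851 windows of the same length, or 7.51%. Counted from the start site, the matches began at -155 and -45 in Malat1 and at -43 in Kcnq1ot1. In Meg3 the matches at -57 and -55 overlapped on the 2 strands as the full element TGACGTCA, which 1.79% of windows held. Overlapping matches to TATAAA lay at -29 and -25 in Meg3, and 13.6% of windows held one. The CCAAT box was found in Meg3 (at -100) and Kcnq1ot1 (at -188, -148 and -67) and in 37.4% of windows. Neither TTCNNNGAA, the element of STAT factors (8.30% of windows), nor the E-box CACGTG (7.15%) was found in these 3 windows. The table holds another window for Meg3, at a downstream start (chr12:109545148-109545447), and none of these motifs was found in it. The matches are letters in a window and say nothing of binding in these hearts.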

How the data were processed

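The members and gene lists were chosen with earlier results of these data known. RNA-seq was made from 9 heart apex samples by enriching mRNA (KAPA mRNA HyperPrep) and sequencing paired ends of 75 bases, per the labels' protocols. STAR 2.5.2b, featureCounts, Subread 1.5.1 and the build mm10 are named per the submitters' processing notes. No annotation, strand setting, rule for reads with several matches or filter is given in those sources. The authors deposited raw counts for each gene; 4141 blank lines were left out. Every gene had over 0.5 CPM in at least 4 libraries. Genes of the mitochondrial genome (0 listed) were not analysed here. Of all library pairs, 0 held identical values, and the smallest chi-square per degree of freedom was 6.52 (AAV-Null 1 with 2), beyond sampling noise, so each library was counted as 1 sample.

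Groups were compared with edgeR 4.0.16 (R 4.3.3): TMM factors, robust quasi-likelihood F test, two-sided, Benjamini-Hochberg over 13192 genes, threshold 0.05; filterByExpr removed 0 genes. Log2 CPM used a prior count of 2. The script was tested on simulated counts. Percent of counts and ratios come from raw counts, with Wilson 95% intervals for counting error. Correlations of the 5 RNAs are given with no test. Summed shares of lists were compared between groups by exact permutation. Named genes were the 5 RNAs, the 2 nearest rows on each side, the 2 most abundant genes of a list with no call, and the 5 most alike. Not every gene that the rule gives is printed. Alternatives were DESeq2 1.42.0, limma 3.58.1 voom with quality weights, other scalings, filters and dispersions, and libraries left out.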

Additional observations from a re-analysis of the deposited data

Results flagged for a closer look

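A single sample stood far from the rest in 1 of 36 groups of values examined, where chance gives about 1 in 20. That number is no more than chance gives. The groups, within AAV-Null or AAV-Osm, were shares and ratios of the 5 RNAs. They also held the levels of Lars2, Cdkn1c, Kcnq1, Pnisr, Macf1, Ttc14 and Rian. AAV-Null 4 had 0.919 Kcnq1ot1 reads per 100 Malat1 reads, and the other AAV-Null libraries had 0.588 to 0.631. It is also the library with the lowest Malat1 share, 0.147%, and its part in the group values was not tested beyond leaving it out.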

How the results depend on the processing

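Each of the 5 RNAs was refitted under 20 alternatives, and 0 of them called any of the 5; the lowest adjusted p was 0.410 for Malat1, 0.168 for Neat1, 0.564 for Meg3, 0.344 for Kcnq1ot1 and 0.103 for Rn45s. The sign of Neat1 (0.27 to 0.89) and Rn45s (0.16 to 0.52) held in all of them. Without 1 library at a time, the log2 fold change ran from -0.39 to 0.26 for Malat1, -0.18 to 0.29 for Meg3 and -0.29 to 0.25 for Kcnq1ot1. The lowest values came without AAV-Null 3 and 4, the controls low in both RNAs. Malat1 was then at -0.71 (SE 0.24, edgeR adjusted p = 0.438) and Kcnq1ot1 at -0.60 (SE 0.20, edgeR adjusted p = 0.438). With limma-voom Malat1 was at -0.40 and Kcnq1ot1 at -0.38. Meg3 also turned to -0.051 with total counts, -0.017 with totals without the 5 rows, -0.22 with limma-voom, -0.47 without AAV-Null 3 and 4 and -0.058 without AAV-Null 4 and AAV-Osm 5. The cause was not tested.

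The count of genes called was 16 with edgeR, 51 with DESeq2 and 170 with limma-voom with quality weights. It was 5, 4, 11 and 10 without AAV-Null 1 to 4 in turn and 6, 4, 7, 9 and 8 without AAV-Osm 1 to 5, a range of 4 to 11 with 1 library fewer, and 16 without AAV-Null 3 and 4 and 13 without AAV-Null 4 and AAV-Osm 5. With limma-voom 1 paraspeckle gene was called. Without the 2 farthest libraries r was 0.045 for Malat1 with Neat1, 0.37 for Neat1 with Meg3, -0.17 for Neat1 with Kcnq1ot1 and 0.71 for Neat1 with Rn45s.

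Other named genes near 0 changed sign. With total counts Rbm25 was at -0.015, Exosc10 at -0.0037, Polr2e at -0.027 (-0.0018 without the 5 rows in the totals) and Frmd8 at -0.020. Frmd8 was at -0.0012 with DESeq2 size factors and -0.0025 with DESeq2. With limma-voom Rbm25 was at -0.025, Gas5 at 0.16, Rian at -0.14 and Tssc4 at 0.11. Without AAV-Null 3 and 4 Rbm25 was at -0.12, Gas5 at 0.19, Rian at -0.014 and Tssc4 at 0.11. Without AAV-Null 4 and AAV-Osm 5 Gas5 was at 0.058, Rian at -0.24 and Tssc4 at 0.056. Without 1 library at a time the range was -0.062 to 0.14 for Rbm25, -0.017 to 0.063 for Exosc10, -0.061 to 0.077 for Polr2e, -0.19 to 0.064 for Gas5, -0.21 to 0.15 for Mhrt, -0.00089 to 0.25 for H1f0, -0.10 to 0.091 for Frmd8 and -0.14 to 0.31 for Rian. No paired analysis was possible because the labels carry no replicate numbers. Depth limits Meg3 and Kcnq1ot1 most, with 213 and 299 reads in their lowest libraries.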
